A study of Mus musculus with 35 samples.

Results

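The clustered histone genes code for most of the histone protein that a dividing cell packs around newly made DNA. They were taken as every gene whose name in the deposited tables begins with Hist1h, Hist2h, Hist3h or Hist4h, which gave 70 of 38924 genes. By class these were 6 H1, 20 H2a, 19 H2b, 12 H3 and 13 H4 genes. Their RNA was measured by RNA sequencing in 35 libraries from CD8 T cells of C57BL/6 mice, in a series whose title concerns CD8 memory T cells that accumulate in the nervous system with age. Sorting kept CD3e+CD8+CD44hiCD62Llo cells, a surface profile of T cells that have met antigen. Without stimulation, brain cells were taken from young male mice (n = 5), from aged male mice (n = 6) and from aged female mice (n = 5). PMA/ionomycin, a drug pair that activates T cells without their receptor, was given for 2 h to brain cells of aged male (n = 4) and aged female mice (n = 5). The spleen was sampled in aged male mice alone, with 5 libraries without and 5 with that stimulation. The labels give age only as young or aged and name no genetic modification. No label ties a replicate to an animal of its own, so each p-value reflects the spread from sample to sample, part of which may be technical.

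Core histones H2a, H2b, H3 and H4 form the spool around which nuclear DNA is wound, and the linker histone H1 binds where the DNA enters and leaves it. Most clustered histone genes are transcribed when DNA is copied in S phase, and their mRNA ends in a conserved stem-loop in place of a poly(A) tail. The stem-loop binding protein Slbp guides the processing, translation and decay of these mRNAs, which disappear when DNA synthesis stops. Memory T cells divide little at rest, and some clustered histone genes also give polyadenylated RNA in cells that do not divide.

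The stem-loop is shown because it is what these mRNAs have in common beyond the protein they encode. It was searched on the sense strand of the GENCODE M21 transcripts (GRCm38, the assembly also called mm10) as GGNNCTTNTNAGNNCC with N for any base and with both 6-base arms able to pair. Of the 63 members with a transcript there, 41 held it, all in the 3′ untranslated region, against 14 of 21842 other protein-coding genes (0.0641%). The commonest form, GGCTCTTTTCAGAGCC, was found in 23 members, of which 3 were H1, 10 H2a, 6 H2b and 4 H3 genes. The 12 H4 genes with a stem-loop had forms of their own, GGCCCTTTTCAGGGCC in 7 of them, and shared none with another class. One member per class, each among the highest of its class, gives the sequence 5′ to 3′ with 5 flanking bases on each side and the stem-loop in capitals:
Hist1h1c: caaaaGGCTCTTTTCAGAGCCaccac
Hist1h2ao: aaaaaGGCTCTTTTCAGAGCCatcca
Hist1h2bk: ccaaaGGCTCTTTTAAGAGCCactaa
Hist1h3e: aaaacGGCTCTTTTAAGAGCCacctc
Hist1h4h: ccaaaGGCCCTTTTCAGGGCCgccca
The capitals lie at chr13:23739512-23739527 on the plus strand for Hist1h1c and at chr13:21810898-21810913 on the plus strand for Hist1h2ao. They lie at chr13:22036300-22036315 on the plus strand for Hist1h2bk, at chr13:23561903-23561918 on the minus strand for Hist1h3e and at chr13:23531458-23531473 on the plus strand for Hist1h4h. The annotated transcript ended within 100 bases of the stem-loop in 21 members, Hist1h2ao, Hist1h2bk and Hist1h4h among them. It ran on past the stem-loop in 20 members, by 840 bases in Hist1h1c and by 369 bases in Hist1h3e. The other 22 members with a transcript showed no stem-loop in it, and 13 of the 18 of these with a coding sequence have under 30 annotated bases after it.

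The promoters also separated the H4 genes from the rest. RefSeq promoter windows of 300 bases (GRCm38.p6, 250 before to 50 after the start) were matched to 61 members and searched on both strands for the box CCAAT, the TATA box in the form TATAAA and the octamer ATTTGCAT, each counted on its own whatever it overlapped. CCAAT, which the factor NF-Y binds, occurred in all 49 matched H1, H2a, H2b and H3 windows and in 3 of 12 H4 windows, against 37.4% of all 32851 windows. This octamer, known from H2b promoters, occurred in 7 of 17 H2a and 6 of 16 H2b windows and in no window of the other classes, against 1.74% of all. TATAAA occurred in 57.4% of the matched members and 13.6% of all windows. The 120 bases before the start are given for 4 members that are described below, with these motifs in capitals:
Hist1h1c: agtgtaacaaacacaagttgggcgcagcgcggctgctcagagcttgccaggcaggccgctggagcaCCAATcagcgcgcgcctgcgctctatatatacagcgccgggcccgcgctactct
Hist1h2ak: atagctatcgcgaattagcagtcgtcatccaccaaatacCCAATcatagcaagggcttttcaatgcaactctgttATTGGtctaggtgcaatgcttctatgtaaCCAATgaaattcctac
Hist2h2bb: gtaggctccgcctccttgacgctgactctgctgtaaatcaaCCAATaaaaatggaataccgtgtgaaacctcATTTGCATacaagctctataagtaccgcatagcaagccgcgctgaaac
Hist1h4h: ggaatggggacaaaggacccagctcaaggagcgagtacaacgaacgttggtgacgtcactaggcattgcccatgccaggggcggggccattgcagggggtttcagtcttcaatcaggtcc
These stretches are chr13:23738687-23738806 (plus strand), chr13:21753913-21754032 (minus strand), chr3:96269580-96269699 (plus strand) and chr13:23530924-23531043 (plus strand). ATTGG is CCAAT read on the other strand. A match says only that these letters are in the window.

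By position, 49 members lie on chromosome 13, 10 on chromosome 3, 3 on chromosome 11 and 1 on chromosome 6 in GENCODE M21, and 7 were not matched there. Members of a class are so alike that reads cannot always be assigned to 1 of them. The median identity of coding sequences of equal length was 96.67% among H2a, 97.35% among H2b, 95.34% among H3 and 93.85% among H4 genes. Hist1h2ao and Hist1h2ap, Hist1h4n and Hist1h4m, Hist1h2br and Hist1h2bq, and the pair Hist2h2aa1 and Hist2h2aa2 are identical over their coding sequence. The deposited names of that last pair are exchanged relative to GENCODE: the identifier named Hist2h2aa2 in the files (ENSMUSG00000064220, chr3:96245497-96246082) is Hist2h2aa1 there. Values of single members are therefore uncertain, and the sum over each class is given beside them.

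Library totals ran from 1.16 to 24.97 M counts, and mitochondrial genes took 38.47% to 69.73% of counts in stimulated brain and 8.28% to 20.83% in the other groups. The sample titles are written with or without hyphens, and the S numbers that end the hyphenated titles repeat. From this 3 title sets were inferred, which no label calls batches. The unstimulated male brain libraries fall in 1 of these, unstimulated female and stimulated male brain libraries in another, and all spleen libraries in the unhyphenated one. Sex, brain stimulation in males or tissue and title set therefore cannot be told apart. The CD8 T cell list (Cd3d, Cd3e, Cd3g, Cd8a, Cd8b1, Trac, Cd2 and Ccl5) had counts for all 8 genes in every group. Its sum was 3397 to 5254 CPM (counts per 1000000 counts of the library) in unstimulated cells, 1643 to 3846 CPM in stimulated spleen and 256.9 to 1187 CPM in stimulated brain.

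Clustered histone RNA took a larger share of counts in unstimulated male brain than in spleen or stimulated brain. The 70 genes together took 1.007% to 1.901% of counts in young male brain (median 1.385%), and 0.702% to 1.57% in aged male brain (median 1.092%). In unstimulated aged female brain replicates 13 to 17 the shares were 2.884%, 0.609%, 0.438%, 0.12% and 0.523%, so replicate 13 stood above all other libraries of the series and the other 4 below every unstimulated male brain library. Spleen libraries held 0.396% to 0.706% before stimulation, the highest of them just above the lowest aged male brain library, and 0.258% to 0.566% after it. In stimulated brain the share was 0.113% to 0.163% in males and 0.113% to 0.241% in females. Mitochondrial genes took much of the counts there, and of the counts outside them the histone share was 0.184% to 0.501% in males (median 0.346%) and 0.253% to 0.501% in females (median 0.416%). On that base stimulated spleen, at 0.303% to 0.67% (median 0.386%), overlapped both, while unstimulated aged male brain stood at 0.783% to 1.736% and unstimulated spleen at 0.448% to 0.792%. Because these are bulk libraries, fewer cycling cells and less histone RNA per cell cannot be told apart. Members with at least 1 count numbered 56 to 64 in aged male and 58 to 62 in young male brain, 22 to 66 in unstimulated female brain, 60 to 66 in spleen, and 6 to 22 in stimulated brain. Of all genes, 8979 to 10756 had counts in aged male, 9478 to 10040 in young male and 6456 to 12706 in unstimulated female brain. The numbers were 13729 to 15174 in spleen and 2271 to 6769 in stimulated brain. Detection thus differed between the groups over all genes, and nothing particular to histone genes is read from the numbers of members found. One gene, Hist2h3c1, had 0 counts in all 35 libraries.

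**Figure D1:**
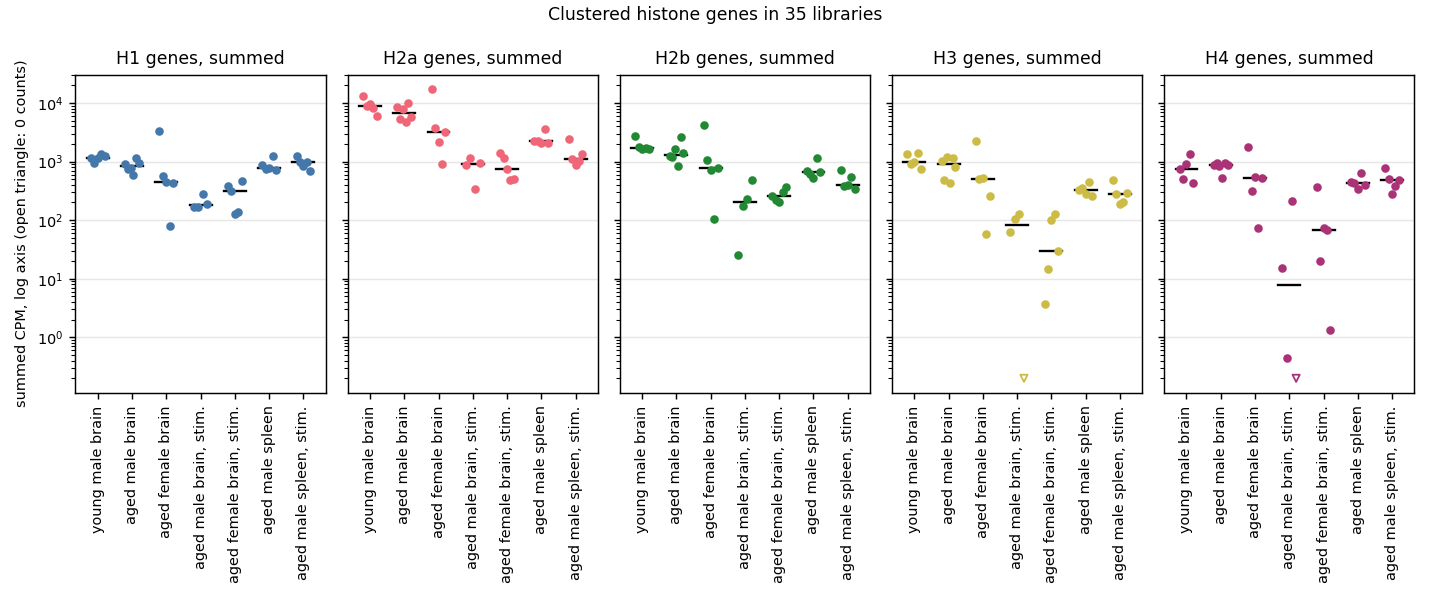
Summed CPM of each histone class (log axis) in every library of the 7 groups, with black bars for group medians and open triangles for libraries at 0 counts. H2a sums lie between 4659 and 13100 CPM in unstimulated male brain and between 2034 and 3597 CPM in unstimulated spleen, whereas the H1 sums of these groups overlap.

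H2a transcripts were the largest class in every aged male group compared here, and H1 took a larger part in spleen than in brain among unstimulated cells. The H2a share was 58.64% to 67.7% in unstimulated aged male brain, 48.56% to 51.38% in unstimulated spleen and 32.55% to 43.11% in stimulated spleen, with no overlap between these groups. The H1 share ran the other way, at 6.36% to 9.76%, 17.19% to 19.8% and 21.63% to 32.33% in the same groups, again without overlap. In stimulated male brain the shares were wide, at 28.38% to 75.76% for H2a and 10.48% to 23.4% for H1, and both overlapped those of stimulated spleen. Stimulated female brain ranged from 37.29% to 66.32% for H2a and from 10.27% to 33.6% for H1. Both shares are ratios within a library and do not depend on scaling between libraries. Levels of different genes were compared per length, in the deposited TPM (RSEM's level per transcript length). Hist2h2aa2 had the highest mean TPM of all members in 6 of the 7 groups, at 4200 ± 1433 TPM (SD, n = 6) in aged male brain and 1853 ± 574 TPM (n = 5) in unstimulated spleen. Hist1h2ao came next in both, at 3056 ± 1638 TPM and 692 ± 247 TPM. In stimulated spleen the linker histone gene Hist1h1e ranked behind Hist2h2aa2 and the H4 gene Hist1h4d at 458 ± 126 TPM. In stimulated male brain the highest mean belonged to Hist1h2aj, a gene that GENCODE lists as a pseudogene, at 627 ± 533 TPM (n = 4).

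**Figure D2:**
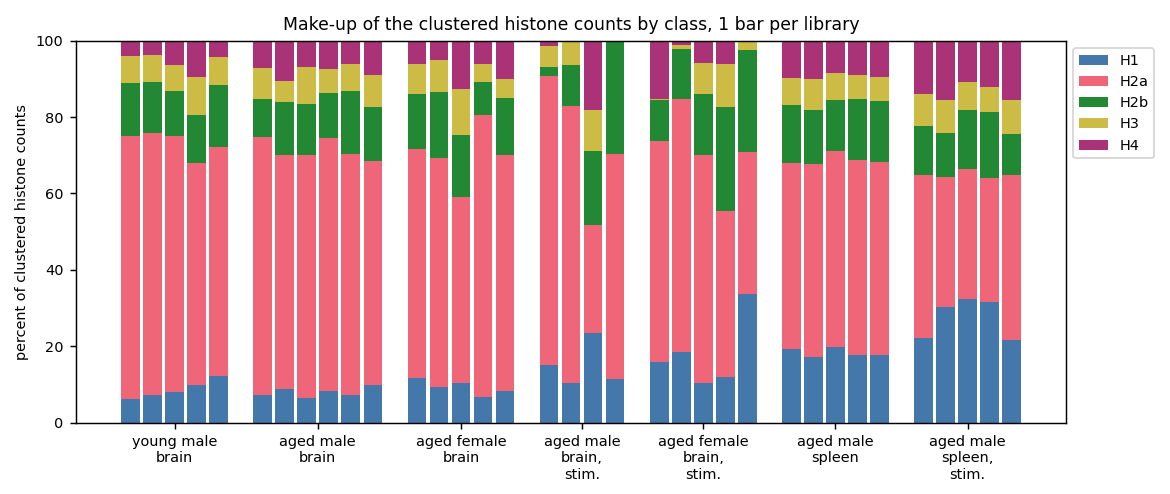
Percent of the clustered histone counts that fell in each class, 1 bar per library, grouped as labelled on the horizontal axis. The H1 part is at most 12.17% in unstimulated brain libraries, 17.19% to 19.8% in unstimulated spleen and 21.63% to 32.33% in stimulated spleen.

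Single members varied far more between unstimulated male brain libraries than their sum did. In aged male brain the median coefficient of variation (SD over mean) of the 65 members with counts was 104%, and that of the sum of all members was 28.3%. The values were 106% and 22.9% in young male brain, and 38.5% and 26.6% in unstimulated spleen. The H2b gene Hist1h2bk, for example, was at 116.6, 2.234, 31.76, 70.2, 472.2 and 353.8 CPM in aged male brain replicates 7 to 12 and at 46.23, 68.05, 49.12, 115.1 and 88.24 CPM in unstimulated spleen replicates 30 to 34. Brain replicate 8 was far below the others and replicates 11 and 12 far above the spleen range, which was narrow. In unstimulated female brain both values were high (141% and 122%), and replicate 13 was the highest library for all 5 class sums. Stimulated brain, where many members had counts in 1 library only, gave 200% and 19.2% in males and 222% and 32.7% in females. A sum evens out its members, so its lower value is not read as a trait of histone genes. Replicates were also less alike in brain. The chi-square for each degree of freedom between replicates was at least 419 in aged and 358 in young male brain, and at most 47.0 in unstimulated spleen. Whether other genes spread as widely between brain libraries was not tested.

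**Figure D3:**
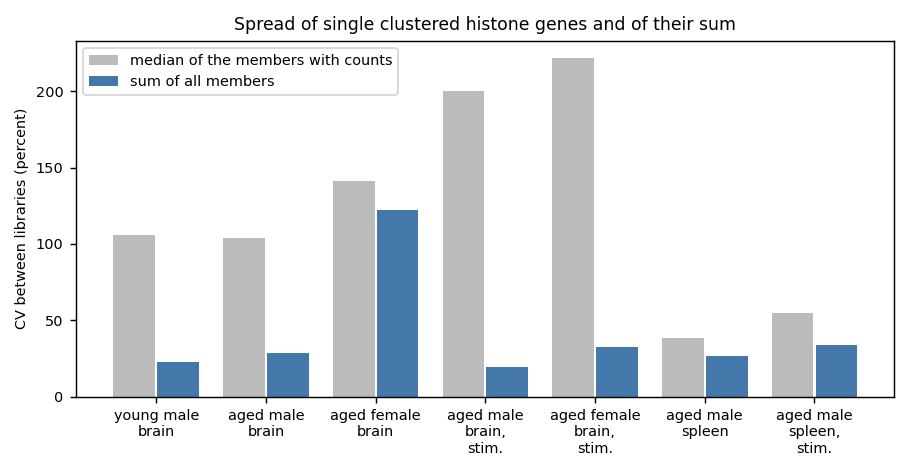
Coefficient of variation between the libraries of a group, as the median over single members with counts (grey) and for the sum of all members (blue). Single members vary by 104% and 106% in unstimulated male brain against 28.3% and 22.9% for the sum, while in unstimulated spleen the values are 38.5% and 26.6%. The spread of other genes is not shown.

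Brain and spleen cells of aged males were compared without stimulation. H2a, H2b, H3 and H4 transcripts were all higher in brain cells, by 2.77-fold to 4.24-fold, while H1 transcripts did not pass the test. The H2a sum was 4659 to 9882 CPM in brain, and 2200, 2209, 2034, 3597 and 2083 CPM in spleen replicates 30 to 34, so the tissues did not overlap. The log2 fold change from edgeR's quasi-likelihood test with Benjamini-Hochberg adjustment was 2.09 (SE 0.19, adjusted p = 1.222e-05). The H3 sum was 436.4 to 1184 CPM in brain and 260.5 to 441.9 CPM in spleen, with the lowest brain library just under the highest spleen library (log2 fold change 1.90, SE 0.27, adjusted p = 0.0006748). The H2b sum (1.59, SE 0.26, adjusted p = 0.002231) and the H4 sum (1.47, SE 0.22, adjusted p = 0.0008557) also rose, with overlapping libraries. The H1 sum was 578.6 to 1152 CPM in brain and 730 to 1250 CPM in spleen (log2 fold change 0.52, SE 0.19, adjusted p = 0.1453). The median over all 11040 genes tested was 0.31 with the main scaling by TMM (trimmed mean of M values) and -0.24 with library totals, so each class is also given relative to it. H2a stood 1.78 above that median, H3 1.59, H2b 1.28, H4 1.16 and H1 0.21, and the values with library totals were 1.77, 1.59, 1.27, 1.13 and 0.20.

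Of the 65 members that passed the low-count filter, 11 were higher in brain and 1 lower, 18.5% in all, against a background of 3.35% of all genes tested higher and 4.02% lower. The fold change was above 0 for 58 of the 65, with a median of 1.51. Among H2a genes 5 of 19 rose and none fell. Hist1h2ak (ENSMUSG00000063021, chr13:21753435-21753827, protein-coding), whose promoter is shown above, was at 282.9 to 1033 CPM in brain with a median of 816.7 CPM. In spleen replicates 30 to 34 it was at 138.8, 126.1, 109.6, 193.1 and 144.3 CPM, below every brain library (log2 fold change 2.96, SE 0.31, adjusted p = 3.802e-05). Hist1h2af, another H2a gene, was also separate, at 198.3 to 1088 CPM in brain and 106.6 to 177 CPM in spleen (2.79, adjusted p = 0.000985). Hist1h2ao had a brain range of 291.5 to 1910 CPM, which overlapped the spleen range of 195.9 to 449 CPM (2.70, adjusted p = 0.0009441). Hist2h2aa2 rose by less (1.76, adjusted p = 0.0004442) but from a higher level, with means of 1973 ± 706 CPM in brain and 856 ± 287 CPM in spleen (SD, n = 6 and n = 5). The pseudogene Hist1h2aj rose as well (3.58, SE 0.60, adjusted p = 0.002468).

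Among the other core histone genes, the H2b gene Hist2h2bb was at 205.2 to 382.8 CPM in brain and at 93.57, 64.58, 60, 128.3 and 68.29 CPM in spleen replicates 30 to 34, without overlap (log2 fold change 2.31, SE 0.31, adjusted p = 0.0004402). GENCODE lists its identifier (ENSMUSG00000050936, chr3:96269721-96279001) as the long non-coding RNA Gm42743. It was the only H2b gene of 17 tested that passed. The H4 gene Hist1h4h rose by 2.00 (SE 0.41, adjusted p = 0.005024) from 57.2 ± 25.2 to 152 ± 50.9 CPM, with 1 brain library, replicate 10 at 65.6 CPM, inside the spleen range. The H3 genes Hist2h3b, Hist2h3c2 and Hist1h3f rose by 1.92, 2.44 and 2.34 (adjusted p = 0.01578, 0.02254 and 0.04185). The linker gene Hist1h1a was the single H1 gene that rose (3.01, adjusted p = 0.04142), from 9.78 ± 4.14 to 51 ± 50.9 CPM, and brain replicates 7 and 8 held most of it at 108.8 and 123.3 CPM. The abundant linker genes Hist1h1c (0.36, SE 0.20, adjusted p = 0.4275) and Hist1h1e (0.51, SE 0.26, adjusted p = 0.3738) did not pass. The H4 gene Hist1h4i was the 1 member that was lower in brain, with 3 counts in 6 brain libraries and 270 counts in 5 spleen libraries. Per count sequenced it was 188-fold higher in spleen, with an exact 95% counting interval of 63.7 to 918.

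**Figure D4:**
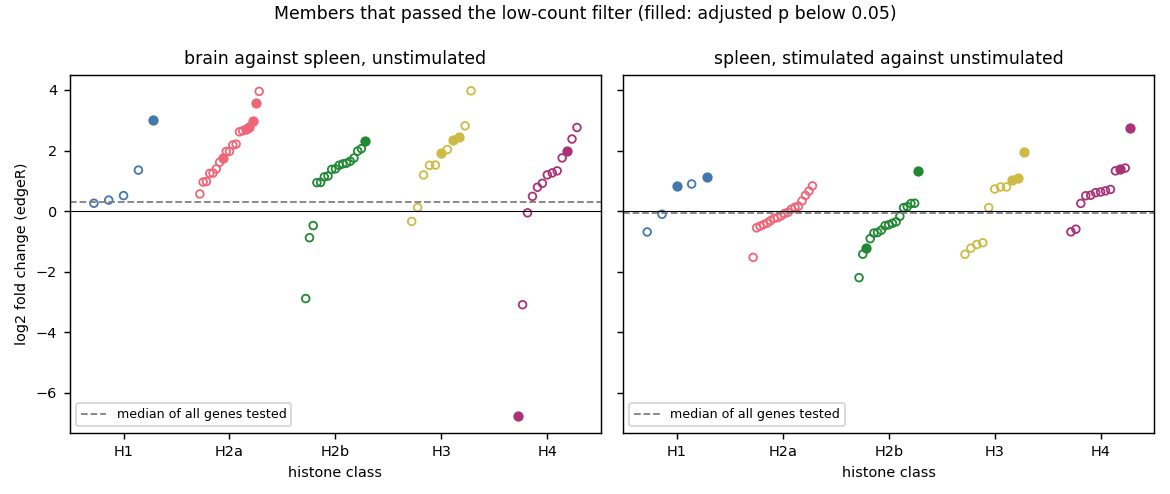
Log2 fold change (edgeR) of every member that passed the filter, by class, for unstimulated brain against spleen (left) and for stimulation of spleen cells (right), with filled points past an adjusted p of 0.05 and a dashed line at the median of all genes tested. In brain 58 of 65 members lie above 0, and after stimulation of spleen cells 33 of 64 do.

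Genes that work with histones or copy DNA were read against the 3.35% of all genes that were higher in brain and the 4.02% that were lower, and none of the 5 lists described next had a lower gene. Of 22 DNA replication genes 1 was higher in brain, the sliding clamp gene Pcna (1.49, adjusted p = 0.003877), whose mean was 395 ± 130 CPM in brain and, without overlap, 210 ± 14.9 CPM in spleen. The list's median was 1.301 against 0.31 for all genes, and 21 of 22 were above 0. Of 11 mitosis genes tested 2 were higher, Stmn1, a microtubule regulator (2.50, adjusted p = 0.004854), and Top2a, which untangles DNA (2.13, adjusted p = 0.03195). Over those 11 genes the median was 0.71 and only 7 were above 0. Of 16 histone chaperone genes Nasp, an H1 and H3 chaperone, was higher (1.88, adjusted p = 0.005723). None of 17 tested genes for the synthesis and processing of histone mRNA passed in either direction, and their median was 0.37. Of 9 genes listed as replication-independent histone genes, which can be made outside S phase, H3f3b, an H3.3 gene (1.21, adjusted p = 0.004854), and H2afj (1.99, adjusted p = 0.02002) were higher. By annotated transcript end, the median fold change was 1.61 over 21 members that end near the stem-loop, 0.95 over 18 that run on past it, 1.98 over 19 without one and 1.64 over 7 without an M21 transcript. Other RNA without a poly(A) tail, such as Rn7sk and Rmrp, summed to 1080 to 1730 CPM in brain and 1963 to 3383 CPM in spleen, and none of 8 tested passed.

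Markers of other cells differed between the tissues as well. The B cell list summed to 0.4004 to 28.93 CPM in aged male brain, where Cd79a was at 0 counts, and to 218.9 to 725.5 CPM in spleen. Microglia genes summed to 2.162 to 422.9 CPM in brain and 123.8 to 176.9 CPM in spleen, with Aif1 at 0 in brain and Tmem119 at 0 in spleen. The choroid plexus, neuron and glia list summed to 63.28 to 681.1 CPM in brain and 64.24 to 74.09 CPM in spleen. Their part in the histone values was not tested. In a single fit of all 35 libraries no member and only the H2a sum passed (2.28 for H2a, adjusted p = 0.013), and with library totals 6 members were higher and 1 lower. The sums of H2a, H2b, H3 and H4 passed in each of the 11 fits that left out 1 library, and the H1 sum passed only without brain replicate 10 (0.60, adjusted p = 0.0412).

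Stimulation of spleen cells shifted the make-up of clustered histone RNA towards H1 and H4. The H1 sum rose 1.71-fold and the H4 sum 1.75-fold relative to other genes, and the H2a, H2b and H3 sums did not pass. The H1 sum was 876.2, 751.7, 783.9, 1250 and 730 CPM in unstimulated replicates 30 to 34 and 1253, 985.1, 833.9, 983.7 and 684.1 CPM in stimulated replicates 36 to 40. These values overlapped, with unstimulated replicate 33 level with the highest stimulated library and stimulated replicate 40 the lowest of all 10 (log2 fold change 0.77, SE 0.16, edgeR adjusted p = 0.004752). The H4 sum was 439.8, 437.8, 335.5, 640.2 and 390.6 CPM before and 782.7, 510.5, 278.2, 378.1 and 488.1 CPM after stimulation (0.80, SE 0.25, adjusted p = 0.04402). The H2a sum was 2034 to 3597 CPM before and 881 to 2422 CPM after, yet its fold change with TMM scaling was -0.15 (SE 0.26, adjusted p = 0.7328). The size of these changes, and which of them passed, depends on the scaling. With library totals the median of all 11107 genes tested moved from -0.07 to -0.73, the H1 and H4 sums no longer passed (0.11 and 0.12, adjusted p = 0.63 and 0.703), and the H2a and H2b sums were lower (-0.835 and -0.615, adjusted p = 0.0199 and 0.0494). Against the median of all genes the classes kept their places, at 0.84 (TMM) and 0.84 (library totals) for H1, 0.88 and 0.84 for H4, 0.55 and 0.52 for H3, 0.12 and 0.11 for H2b, and -0.08 and -0.11 for H2a.

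**Figure D5:**
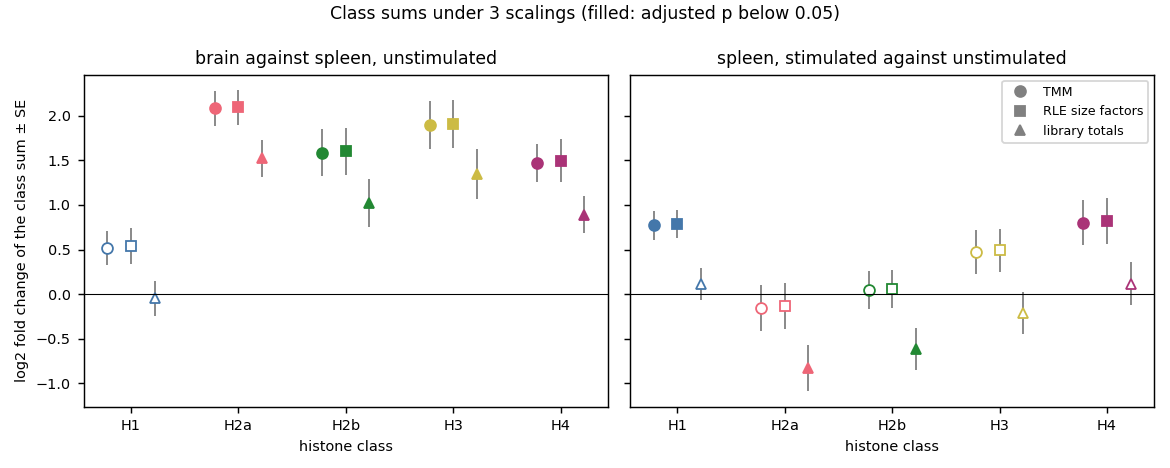
Log2 fold change of each class sum with its standard error under TMM, RLE size factors and library totals, filled where the adjusted p was below 0.05, for unstimulated brain against spleen (left) and stimulation of spleen cells (right). Library totals lower all 5 classes by about the same amount in each comparison, so that in spleen the H1 and H4 sums lose their call and the H2a and H2b sums gain one in the other direction.

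Of 64 members tested 8 were higher after stimulation and 1 was lower, 14.1% in all, against 12.6% of all genes higher and 6.12% lower, so the share of members called was near that of all genes. The 64 members had a median fold change of 0.09, with 33 above 0. Both abundant H1 genes rose. Hist1h1e was at 238.5, 208.1, 197.8, 358.6 and 209.7 CPM before and 415.7, 339.6, 357.1, 416.3 and 178.9 CPM after stimulation (log2 fold change 1.14, SE 0.19, adjusted p = 0.001265). Stimulated replicate 40 was the lowest of all 10 libraries, and the other 4 lay at or above all but the highest unstimulated library. Hist1h1c rose by 0.82 (SE 0.18, adjusted p = 0.005882), with overlapping libraries and means of 450 ± 84.4 and 496 ± 118.9 CPM (SD, n = 5 each). Hist1h4n had the smallest adjusted p, and went from 19.22, 18.89, 13.47, 26.79 and 5.11 CPM to 108.4, 70.47, 31.8, 58.12 and 78.21 CPM, with every stimulated library above every unstimulated one (2.75, SE 0.41, adjusted p = 0.0005315). Its coding sequence is identical to that of Hist1h4m, so the share of reads given to each is uncertain. The H3 genes Hist1h3a (1.94, adjusted p = 0.00125), also without overlap, Hist1h3e (1.02, adjusted p = 0.009101) and Hist1h3i (1.10, adjusted p = 0.02159) rose, as did the H4 gene Hist1h4c (1.37, adjusted p = 0.009861) and the H2b gene Hist1h2bc (1.33, adjusted p = 0.01649).

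None of the 18 H2a genes tested passed, in contrast to the tissue comparison, and the difference between those comparisons was not tested. Hist2h2aa2 was at 722.8, 752.3, 739.1, 1367 and 697.3 CPM before and 915.2, 421.5, 251.5, 311.8 and 655.8 CPM after stimulation (-0.04, SE 0.35, adjusted p = 0.9512). Hist1h2ao was lower in every stimulated library in CPM (77.92 to 163.2 against 195.9 to 449), but its TMM-scaled change of -0.50 (SE 0.24, adjusted p = 0.1766) did not pass. The H2b gene Hist1h2br fell by 1.22 (SE 0.38, adjusted p = 0.04293), and the call was lost in 8 of 10 fits that left out 1 library. The H4 sum lost its call in 7 of those 10 fits, with adjusted p from 0.00631 to 0.113, whereas the H1 sum, Hist1h1e, Hist1h1c, Hist1h4n, Hist1h3a, Hist1h3e and Hist1h4c passed in all 10. Without stimulated replicate 36, 8 members were higher and 8 lower. With library totals 2 members were higher and 20 lower, and in the fit of all 35 libraries none passed.

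Lists of genes that handle histone mRNA and histones held genes that rose, in a comparison where 12.6% of all genes were higher and 6.12% lower. Nothing particular to these lists is read from their counts. Of 17 genes for histone mRNA synthesis and processing 3 were higher and none lower, Slbp (0.63, adjusted p = 0.007468), Casp8ap2, which acts at histone locus bodies (0.69, adjusted p = 0.006415), and Hinfp, an activator of H4 genes (1.17, adjusted p = 0.03535). In CPM, before any scaling, Slbp was level, at a mean of 104 CPM before and 101 CPM after stimulation. Of 16 chaperone genes 4 were higher, led by Nasp (1.79, adjusted p = 0.0009469) at 131 ± 18.4 CPM before and 275 ± 110 CPM after, and 2 were lower, Hira (-1.13, adjusted p = 0.007595) and Cabin1 (-0.60, adjusted p = 0.01187), which belong to the same H3.3 chaperone complex. The H3.3 gene H3f3b rose by 1.48 (adjusted p = 6.208e-05) and H2afx fell by 0.90 (adjusted p = 0.01797), among 9 histone genes listed as replication-independent. Of 22 DNA replication genes Cdt1, a licensing factor (1.47, adjusted p = 0.001463), and Pcna (1.28, adjusted p = 0.007777) were higher, and none of 11 mitosis genes passed. Of 9 RNAs tested without a poly(A) tail, Rn7sk (0.85), Rmrp (0.95) and Scarna2 (0.85) were also higher. B cell genes moved with stimulation too: Ms4a1 (2.25, adjusted p = 0.003325) and Cd79a (2.13, adjusted p = 0.004468) were higher, although the list's sum was 178.2 to 356.9 CPM after and 218.9 to 725.5 CPM before, and its part was not tested.

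Aged and young male brain cells did not differ at the threshold. The histone classes were at or below the young level in aged cells, with log2 fold changes of -0.58 for H1 (SE 0.23), -0.56 for H2a (SE 0.21), -0.52 for H2b (SE 0.26), -0.49 for H3 (SE 0.29) and 0.00 for H4 (SE 0.29). All 5 adjusted p-values were 0.9258 or higher, and the libraries of each class overlapped. The H2a sum was 13100, 9002, 9534, 8061 and 6041 CPM in young replicates 2 to 6 and 4659 to 9882 CPM in aged cells, so only young replicate 2 lay above the aged range. An interval of 2 standard errors for H2a ran from -0.976 to -0.146 before adjustment over genes. None of 58 members passed, 18 were above 0, and the median was -0.46 against -0.08 for all genes. Among all 8068 genes tested 0% were higher and 0% lower by edgeR, and 374 had an unadjusted p under 0.05, 2 of them members. Those are the genes that DESeq2 called, Hist1h4j (-6.44, adjusted p = 2.848e-05) and Hist1h3i (-4.36, adjusted p = 0.001164). Hist1h4j was at 177.7, 0.3214, 63.21, 201.4 and 0.4502 CPM in the young libraries and at most 4.049 CPM in the aged ones. Hist1h3i was at 391, 369.8, 160.6, 176.5 and 4.277 CPM in young and 1.166 to 30.95 CPM in aged libraries. Each was thus high in 3 or 4 of 5 young libraries, and the remaining young libraries lay within the aged range.

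Aged female and male brain cells were compared without stimulation. The 5 class sums were 0.17 to 0.72 lower in females on the log2 scale, with standard errors of 0.50 to 0.62 and adjusted p of 0.9986, and none passed. None of 55 members passed, against 0% of 8691 genes higher and 0.15% lower, and by edgeR 365 genes had an unadjusted p under 0.05, of which 1 was a member. Female replicate 13 stood apart: its H2a sum was 17270 CPM, and those of replicates 14 to 17 were 3663, 2138, 889.6 and 3234 CPM, all below the lowest male library at 4659 CPM. Replicate 13 also had the highest sums of DNA replication genes (2620 CPM, others 678.6 to 1437) and of mitosis genes (2261 CPM, others 408.1 to 784.1), and the part of these in its histone level was not tested. Without it the H2a sum was lower in females by 1.77 on the log2 scale (adjusted p = 0.0428) and Hist2h2aa2 was the member that passed (-2.03, SE 0.30, adjusted p = 0.01047). The choice to look at this library followed from its values.

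Stimulated brain libraries held few clustered histone transcripts, and many other genes were lower in them too. In males the H2a sum was 4659 to 9882 CPM before stimulation and 856.9, 1165, 337.6 and 960.6 CPM in stimulated replicates 19 to 22, without overlap (log2 fold change -2.66, SE 0.48, edgeR adjusted p = 0.005538). The other 4 sums were also lower in every stimulated library but did not pass, at -1.48 for H1, -2.10 for H2b, -2.89 for H3 and -2.91 for H4 (adjusted p = 0.163, 0.06069, 0.07095 and 0.1429). The median of all 7540 genes tested was -2.62, and 36.4% of genes were lower and 1.75% higher. H2a thus lay 0.03 below that median and H1 1.14 above it. Of 48 members that passed the filter 27 were lower (56.2%) and none higher. Of the 27, 21 had 0 counts in all 4 stimulated libraries. These 21 passed the filter only through the unstimulated libraries, so they could only come out lower. The 56.2% is therefore not read as a trait of histone genes. Against a floor of 3 counts per library, Hist1h2ao was at least 903-fold lower, Hist1h2ab 296-fold, Hist2h2bb 213-fold, Hist1h2ac 174-fold, Hist1h3f 135-fold and Hist1h2bc 90.3-fold. The H1 gene Hist1h1c, by contrast, had counts in all 4 libraries, at 127.2, 99.93, 91.16 and 84.73 CPM. These 4 libraries had 1.16 to 6.39 M counts, the lowest total of the series among them, with mitochondrial shares of 38.47% to 67.48%, and whether depth or RNA quality plays a part was not tested.

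In females stimulation changed no class sum at the threshold (-0.28 for H1, -1.23 for H2a, -0.87 for H2b, -2.34 for H3 and -1.36 for H4, adjusted p of 0.279 or higher). Of 28 members that passed the filter 1 was lower (3.57%), against 4.17% of 6305 genes lower and 1.92% higher. It was Hist1h2af, at 986.5, 187.5, 559.9, 50.77 and 170.1 CPM before and at 0 counts in all 5 stimulated libraries, which is at least 552-fold lower (edgeR adjusted p = 0.005297). Hist1h2af thus passed the filter only through the unstimulated libraries, and could only come out lower. In stimulated male brain the same gene was at 339.2 and 81.64 CPM in replicates 19 and 20. Without unstimulated replicate 13 the class changes were 1.01, -0.16, 0.11, -1.31 and -0.59, so the sign of H1 and H2b rested on that library. Stimulated female replicates 26 and 27 share the title set of the spleen libraries, and with the remaining 3 alone Hist1h2ak passed as well.

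Stimulated brain and spleen cells of aged males differed in how many genes had counts at all, members and others alike. Of all genes, 2271 to 4464 had counts in brain libraries and 13729 to 14689 in spleen libraries. Totals were 1.16 to 6.39 M and 6.75 to 11.19 M counts, and the part of depth was not tested. Of 58 members tested 37 were lower in brain (63.8%) and none higher, against 46.7% of 9135 genes lower and 1.82% higher. Of the 37, 29 were at 0 counts in all 4 brain libraries. These 29 passed the filter only through the spleen libraries, so they could only come out lower. The 63.8% is therefore not read as a trait of histone genes. At the floor of 3 counts Hist1h2ao was at least 92-fold lower, Hist1h3e 58.4-fold, Hist1h2bn 28.3-fold, Hist1h2bf 22.6-fold and Hist2h4 21.2-fold. Hist1h4m had 2 counts in 4 brain and 2071 counts in 5 spleen libraries, a ratio of 297 with a counting interval of 82.1 to 2454. Of the sums only H1 passed (-1.51, SE 0.50, adjusted p = 0.03185), while the median of all genes was -3.02. The response to stimulation was lower in brain than in spleen for all 5 sums in the test of the difference itself, by 2.39 for H1, 2.63 for H2a, 2.33 for H2b, 3.47 for H3 and 3.85 for H4 on the log2 scale (adjusted p = 0.00411, 0.000522, 0.0271, 0.02 and 0.0465). The median difference over all 12117 genes was -4.04, lower than that of any class, and 41 of 65 members were lower against 35.7% of all genes lower and 2.1% higher. Hist1h2ao, Hist2h2bb, Hist1h2bc, Hist1h3f, Hist1h2ab and Hist1h2bn had the smallest edgeR adjusted p, from 1.762e-07 to 5.262e-05. All 6 were at 0 counts in stimulated male brain and passed the filter only through the other groups. A lower response in brain was thus the only outcome open to them, and their adjusted p does not rank the members by response. With RLE size factors 2 of the 5 sums passed. The H4 difference lost its call in 17 of 20 fits that left out 1 library, and the H2b difference in 1 of 20.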

How the data were processed

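RNA-seq libraries were grouped by their titles and source labels. The deposited raw counts per gene were made by the authors with Bowtie2 2.2.0 and RSEM 1.2.12 on mm10, tools and build per the submitters' processing notes. Expected counts and TPM per gene and sample were deposited by the authors, with RSEM's column names per the file headers. How libraries were selected, whether they keep strand and how reads that fit several genes were treated was not given in the sources used. No table column was left without a sample.

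Counts were tested with edgeR 4.0.16 in R 4.3.3 (TMM scaling, a low-count filter with a minimum count of 10, robust quasi-likelihood fits of only the groups compared, Benjamini-Hochberg adjustment over all genes, threshold 0.05). For the class sums, the rows of the members were replaced by 1 row of summed counts per class. CPM are counts per library total without TMM. A gene at 0 in a group was set to a floor of 3 counts per library; such floors and counting intervals cover counting error only. Totals of 1.16 to 24.97 M counts limit the precision of low members. Replicates of a group differed beyond sampling noise (the most alike pair had a chi-square of 13.0 for each degree of freedom). Alternatives were RLE size factors, library totals, mitochondrial genes left out, DESeq2 1.42.0, other filters, all 35 libraries in one fit, expected counts rounded to whole numbers, title set B only and each library left out. Scripts were tested on simulated data. Stem-loops were found in GENCODE M21 transcripts and motifs in RefSeq promoters with Python 3.11.15.

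Named members were the 2 of each class with the highest mean TMM-scaled CPM over all 35 libraries and, per comparison, up to 6 in each direction by smallest adjusted p. From each other list up to 3 called genes per direction with a mean of at least 5 CPM were named. Others were chosen after their values were seen. The members and gene lists were chosen with earlier results of these data known. 1 marker gene is not reported here.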

Additional observations from a re-analysis of the deposited data

Results flagged for a closer look

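Class sums and the sum of all members were examined in 42 sets of libraries, and 16 held 1 library far from the others. Chance alone gives about 1 in 20 for a single set. The sums were taken over the same libraries, so the sets are not independent and the 16 cannot be weighed against that rate. Unstimulated female brain replicate 13 was high in every sum, at 3366 CPM for H1, 17270 CPM for H2a, 4176 CPM for H2b, 2257 CPM for H3, 1771 CPM for H4 and 28840 CPM for all members. Unstimulated spleen replicate 33 was high for H1 (1250 CPM), H2a (3597 CPM), H2b (1131 CPM) and all members (7060 CPM), and stimulated spleen replicate 36 for all members (5657 CPM). Stimulated male brain replicate 21 was high for H1 (278.4 CPM) and H4 (214.5 CPM), stimulated female brain replicate 23 for H4 (369.7 CPM) and young male brain replicate 2 for H2b (2673 CPM). Aged male brain replicate 10 was low for H4 (522.3 CPM).

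The response to stimulation differed between brain and spleen of aged males for each class sum in edgeR's test of the difference. On the log2 scale it was -2.39 for H1, -2.63 for H2a, -2.33 for H2b, -3.47 for H3 and -3.85 for H4, while the median over all genes was -4.04. For H4 the call was lost in 17 of 20 fits that left out 1 library, and for H2b in 1 of 20.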

How the results depend on the processing

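No paired analysis was possible because the groups compared share no replicate numbers. Among counts of members or class sums called, 106 values under another setting stayed within 1.5 times the main count and 24 did not, and with 1 library left out 159 did and 25 did not. For stimulated spleen, library totals gave 22 members against 9, the fit of all 35 libraries 0 members and 0 class sums, and no low-count filter 1 class sum against 2. The H2b sum turned to -0.615 with library totals. For unstimulated brain against spleen, library totals gave 7 members against 12, and all 35 libraries 0 members and 1 class sum against 4. For age, DESeq2 gave 2 members and no low-count filter 2, against 0. For female brain stimulation, against 1 member, library totals gave 2, DESeq2 2, title set B only 2, no filter 15 and all 35 libraries 23, and against 0 class sums library totals gave 2 and all 35 libraries 1. For male brain stimulation, all 35 libraries gave 41 members against 27, and against 1 class sum library totals gave 5, DESeq2 2 and all 35 libraries 5. For stimulated brain against spleen, no filter gave 0 class sums against 1. For the difference of responses, against 5 class sums RLE gave 2, DESeq2 3 and no filter 2. The cause was not tested.

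With each library left out, members and class sums called ranged from 7 to 16 and 1 to 2 for spleen stimulation, and from 8 to 16 and 4 to 5 for unstimulated brain against spleen. They were 0 to 0 and 0 to 0 for age, and 0 to 1 and 0 to 1 for sex. They were 1 to 5 and 0 to 0 for female and 23 to 32 and 1 to 3 for male brain stimulation. They were 28 to 43 and 0 to 2 for stimulated brain against spleen, and 37 to 46 and 3 to 5 for the difference of responses. Depth limits stimulated male brain most, where 3 counts in a library stood for 1.3 CPM on average.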
